A study of Mus musculus with 4 samples.

Results

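The cells described here are 630 stimulated mouse splenic CD4 T cells that carried transcripts of both Phlda3 and Itm2a, out of 17969 cells with CD3 transcripts in the same libraries. They were chosen by their counts of unique molecular identifiers (UMIs, 1 for each captured RNA molecule). A barcode entered the gate with at least 2000 UMIs, at least 500 genes, at most 10% mitochondrial UMIs and at least 1 UMI of Cd3e, Cd3d or Cd3g. Of these cells, the rule kept those with at least 1 UMI of Phlda3 and at least 2 of Itm2a, with no UMI of Egr3 or Foxp3, and with fewer than 2 UMIs of Il12rb2, 3 of Ccl4 and 3 of Il2. The counts of these 7 genes therefore describe the choice and no test of them is given, nor of Idi1, Cyp51 and Dctpp1, the other marker genes that came with the working name of growing blasts.

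The study sorted CD3+CD4+ T cells from the spleens of C57BL6/J mice, either wild type or Irf5-/-, and cultured them for 6 h with Dynabeads carrying anti-CD3 and anti-CD28 antibodies. Irf5 encodes interferon regulatory factor 5. Single cells were captured in droplets and their RNA was read from the 3′ end, which gave 4 libraries, 1 from females and 1 from males under each genotype label. All groups shared the strain, the organ, the sort and the stimulation, and there was no unstimulated library. The labels give neither the age of the mice, nor the number pooled in a library, nor a batch, so p-values measure the spread between these 4 libraries. Values for the 4 libraries are given below in a fixed order: female labelled knockout, female labelled wild type, male labelled knockout, male labelled wild type.

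Phlda3 encodes a small protein made of little more than a pleckstrin homology domain. It is a known target gene of the transcription factor p53, and it competes with the kinase Akt for membrane lipids. Itm2a encodes a type II membrane protein that is induced when thymocytes and T cells are stimulated. In the p53 pathway, DNA damage, ribosome stress and other insults stabilise p53, which switches on genes that arrest the cell cycle, repair DNA or start apoptosis, along with Mdm2, the ubiquitin ligase that removes p53 again. In the sterol pathway, SREBP2 switches on the enzymes from acetyl-CoA to cholesterol when sterols are low, and a T cell that grows into a blast builds membrane from these sterols.

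Promoter sequence is shown for 4 genes because the results turn on p53 targets and sterol genes, and the search asked which of their promoters carry a known motif near the start site. Sequences were taken from RefSeq on GRCm38.p6, each the 250 bases before the start site, 5′ to 3′ on the strand of the gene, in lower case with the motif match in capitals. Itm2a, at chrX:107403361-107403610 on the minus strand, held a match to the p53 response element that begins 202 bases before the start site.
Itm2a: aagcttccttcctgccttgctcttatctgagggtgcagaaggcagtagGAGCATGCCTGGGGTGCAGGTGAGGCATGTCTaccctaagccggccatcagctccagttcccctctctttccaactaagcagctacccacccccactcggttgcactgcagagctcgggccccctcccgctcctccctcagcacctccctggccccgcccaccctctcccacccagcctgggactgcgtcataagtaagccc
Cdkn1a was searched at 2 start sites. The stretch shown, at chr17:29090729-29090978 on the plus strand, held a match to the same pattern that begins 73 bases before its start site.
Cdkn1a: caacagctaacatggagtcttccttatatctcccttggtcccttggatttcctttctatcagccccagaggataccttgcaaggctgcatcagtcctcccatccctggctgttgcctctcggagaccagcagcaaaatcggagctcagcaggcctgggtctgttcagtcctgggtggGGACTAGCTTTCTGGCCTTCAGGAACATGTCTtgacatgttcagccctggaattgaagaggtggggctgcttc
Hmgcs1, at chr13:119690101-119690350 on the plus strand, held the core of a sterol regulatory element, TCACNCCAC, 137 bases before the start site.
Hmgcs1: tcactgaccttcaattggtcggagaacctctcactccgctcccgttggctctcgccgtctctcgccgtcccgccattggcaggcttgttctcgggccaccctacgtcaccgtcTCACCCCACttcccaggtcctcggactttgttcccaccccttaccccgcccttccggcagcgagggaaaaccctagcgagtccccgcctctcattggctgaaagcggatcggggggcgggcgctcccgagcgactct
Idi1, at chr13:8885356-8885605 on the plus strand, held 2 CCAAT boxes, both read on the opposite strand.
Idi1: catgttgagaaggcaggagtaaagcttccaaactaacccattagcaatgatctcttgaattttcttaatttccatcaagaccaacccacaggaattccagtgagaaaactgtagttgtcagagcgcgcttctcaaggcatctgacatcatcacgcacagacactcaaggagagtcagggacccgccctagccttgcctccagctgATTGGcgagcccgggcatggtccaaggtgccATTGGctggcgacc

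Each motif was searched on both strands in 32851 promoter windows of 27025 genes, and a window runs from 250 bases before to 50 bases after a start site. The p53 response element, a pair of decamers at most 13 bases apart, was found in 24 windows, or 0.0731%. Among the 36 windows of the p53 target list, 1 held a match, at Cdkn1a. The sterol element core was found in 408 windows (1.24%) and in 1 of 26 windows of the sterol list, the one at Hmgcs1, against 2 of 36 windows of the p53 list (5.56%). CCAAT was found in 37.4% of all windows and in 18 of the 26 sterol windows (69.2%), Cyp51 and Idi1 included, against 18 of 36 p53 windows (50%). The E-box CACGTG was found in 7.15% of all windows, in 6 of 26 sterol windows (23.1%) and in 7 of 36 p53 windows (19.4%). The Phlda3 window, on chromosome 1, held none of these 4 motifs. A match describes letters in a window and is not a measured binding site.

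The 630 cells made up 3.51% of the gate, with 166, 85, 220 and 159 cells in the 4 libraries. Their Itm2a count reached 30 UMIs, with a median of 5. At the threshold, 111 cells had 2 Itm2a UMIs and 100 cells had 3, while 279 cells (44.3%) had 6 or more. Phlda3 stood at a single UMI in 384 cells (61.0%), at 2 in 147 and at 3 or more in 99, with a highest count of 7. Phlda3 is thus read near the limit of detection, and a cell that expresses it at this level can be missed.

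These cells were deeper than the rest of the gate. Their median was 9544 UMIs against 6864 over the gate, and by library it was 7128, 11159, 9373 and 12633 UMIs. A cell with more UMIs has more chances to show a Phlda3 UMI, so the comparisons below used cells of the same library matched 1 to 1 on total UMIs within 10%. The main comparators were cells of the same gate, under the same limits for Egr3, Foxp3, Il12rb2, Ccl4 and Il2, that had no UMI of Phlda3 or Itm2a, of which 6420 were available. Matching paired 612 of the 630 cells. Matched cells had medians of 2245 to 3047 genes, against 2125 to 2834 in the comparators, and 3.54% to 3.66% mitochondrial UMIs against 3.80% to 3.93%.

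Libraries held 28841161 to 55850754 UMIs and 1702 to 6204 gated cells, with gate medians from 5184 UMIs in the female labelled knockout library to 9705 in the male labelled wild type library. Droplets under 200 UMIs held 8.62% to 36.2% of a library's UMIs, the most in the female labelled wild type library. Pairs of libraries shared 2 to 13 gated barcodes. Irf5, the targeted gene, went against the labels: in gated cells it was read at 8.39, 0.860, 8.71 and 1.06 CPM (counts per 1000000 UMIs), higher in both libraries labelled knockout. The counts are 3′ tags and the deleted exons are not stated in the sources used here, so this neither checks nor replaces the labels, and every genotype below is the label's.

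Of the 7 T cell markers, Cd3e, Cd3d and Cd3g belong to the gate, so their detection follows from the choice of cells. The other 4, Cd4, Trac, Trbc2 and Cd28, were also detected in each library, and Cd4 was read at 60.1, 39.8, 46.4 and 59.6 CPM. Of 630 cells, 13 (2.06%) carried UMIs of another cell type, 9 of them of CD8 T cells, against 35 of 612 comparators (5.72%), of which 15 had innate-like and 9 had natural killer (NK) markers. NK markers summed to 0 to 14.9 CPM and all 7 were at 0 in 2 libraries. B cell markers summed to 27.9 to 35.5 CPM except in the female labelled knockout library, at 1308 CPM, where 1 cell held 1510 of 1539 Ighm UMIs. In the matched comparators erythroid markers summed to 1367 CPM in the female labelled wild type library, against 13.4 CPM in the matched Phlda3 and Itm2a cells, and to at most 2.48 CPM in the others. Regulatory T cell markers were higher in the comparators in 3 of 4 libraries, at 126, 47.3, 102 and 67.0 CPM against 59.5, 68.2, 52.3 and 42.1 CPM. Mki67, a marker of cycling cells, had no UMI in the 630 cells in any library, and stood at 0.826, 76.1, 1.51 and 12.9 CPM in the matched comparators. Other cycling genes were read in the 630 cells, Top2a with 3, 8, 5 and 2 UMIs and Hist1h2ap with 5, 5, 9 and 8. In both labelled wild type libraries, where Mki67 was highest in the comparators, 1 cell held all comparator UMIs of the histone gene Hist1h1b, 231 and 116.

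The word growing was set against growth genes, and the result depended on whether cells were matched on UMIs. Against all cells with neither gene, not matched on UMIs, 48 of 48 ribosome biogenesis genes were called higher, with a median log2 fold change of 0.60, and 23 of 23 chaperone genes were higher. Over all 9110 genes tested in that unmatched setting, 2511 were called higher and 2568 lower. Against comparators of equal UMIs, 4 of the 48 ribosome biogenesis genes were higher and 3 lower, with a median of -0.02. Ncl and Npm1, the nucleolar proteins nucleolin and nucleophosmin, stood at 4666, 5134, 4570 and 4958 CPM and at 4583, 5045, 4722 and 4869 CPM, and neither passed the test. The cells held more UMIs than most cells without the pair of genes, and the rise of ribosome biogenesis genes was not seen at equal UMIs. Total UMIs also vary with the RNA content of a cell, so matching on them cannot decide whether these cells had grown. The text therefore calls them Phlda3 and Itm2a cells.

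The comparison with equal-depth cells that lack both genes asked what else differs when the pair is present. Targets of p53 and genes of sterol synthesis were higher, chaperones were moderately higher, and genes of the interferon response, of recent T cell receptor signalling and of amino acid supply were lower. Counts were summed per library and cell group and tested with edgeR's quasi-likelihood test, with the library as a block and Benjamini-Hochberg adjustment over all 7589 genes tested. Of those genes 604 (7.96%) were called higher at an adjusted p under 0.05 and 820 (10.8%) lower, and the median log2 fold change over all of them was close to 0. Levels in this and the following comparisons are CPM scaled by edgeR's TMM factors. On the same genes DESeq2 called 196 higher and 405 lower, and on all 14818 genes with a UMI 162 higher and 351 lower.

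Of 23 p53 targets tested, 15 rose and 1 fell, with a median log2 fold change of 0.88. Ccng1, cyclin G1, stood at 195, 176, 195 and 197 CPM in Phlda3 and Itm2a cells and at 50.3, 44.1, 53.2 and 32.9 CPM in the comparators. No value of one group overlapped the other, and the log2 fold change was 2.10 ± 0.10 (SE, n = 4 libraries, edgeR adjusted p = 1.19e-22). Cdkn1a, the p21 inhibitor of cyclin-dependent kinases, read 78.1, 81.9, 92.4 and 96.4 CPM against 13.4, 15.4, 45.4 and 25.9 CPM. Its comparators were more spread, with the male labelled knockout library highest, yet the groups did not overlap and the log2 fold change was 1.70 ± 0.15 (edgeR adjusted p = 1.98e-13).

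The p53 list also holds genes of cell death. Bbc3, the BH3-only protein Puma, stood at 60.7, 60.0, 50.6 and 44.5 CPM against 15.1, 16.5, 18.8 and 7.55 CPM, a log2 fold change of 1.89 ± 0.18 (edgeR adjusted p = 1.21e-12). Bax, which opens the outer mitochondrial membrane, was abundant in both groups, at 509, 467, 584 and 538 CPM against 261, 215, 303 and 251 CPM. It rose by 1.02 ± 0.06 on the log2 scale (edgeR adjusted p = 3.04e-20), and every library showed the difference. Apaf1, the scaffold of the apoptosome, rose by 1.97, Tnfrsf10b, a receptor for the death ligand TRAIL, by 2.17, Ei24 by 1.33 and Fas by 0.48. The call of Fas was lost with DESeq2 (adjusted p = 0.407) and with unmatched comparators (edgeR adjusted p = 0.0805). In the separate list of cell death and survival genes, 2 of 18 rose, Bax and Bbc3, and 8 fell.

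The other p53 targets that rose act in growth control, RNA binding, repair and the spindle. Zmat3, a zinc finger protein that binds RNA, read 50.5, 48.0, 47.2 and 49.4 CPM against 13.4, 9.91, 14.6 and 7.01 CPM, with a log2 fold change of 2.11 ± 0.19 (edgeR adjusted p = 3.59e-13). Polk, a polymerase that copies past DNA lesions, rose by 2.21, and Ercc5, an endonuclease of nucleotide excision repair, by 1.18. Psrc1, a microtubule-associated protein, was at 19.7, 23.0, 18.0 and 23.2 CPM against 0.838, 7.71, 2.61 and 0 CPM, so the fold rests on few comparator counts. Trp53inp1, Aen and Ddit4 rose by 0.88, 0.64 and 0.58. Ddit4 missed the threshold without the female labelled knockout library (0.37, edgeR adjusted p = 0.141) and without the male labelled wild type library (0.57, edgeR adjusted p = 0.0636). Its call was also lost with DESeq2 (adjusted p = 0.42) and with both groups limited to cells without Klf2 UMIs (edgeR adjusted p = 0.0958).

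The list did not move as a whole. Btg2, an antiproliferative p53 target, fell by 0.36 on the log2 scale (edgeR adjusted p = 0.018), a call lost without either male library, with DESeq2 (adjusted p = 0.744) and without cells carrying markers of other types (edgeR adjusted p = 0.0941). Mdm2 stood at 65.5, 42.0, 50.6 and 44.0 CPM against 35.2, 44.1, 45.4 and 35.0 CPM, with overlapping groups and an edgeR adjusted p of 0.0942, although it passed with 3 comparators per cell (0.50), without the female labelled wild type library (0.41) and with unmatched comparators (0.30), at edgeR adjusted p from 0.0194 to 0.0403. Trp53, which encodes p53 itself, differed by 0.03 ± 0.08 (edgeR adjusted p = 0.843), at 143, 117, 143 and 144 CPM against 132, 120.1, 138 and 144 CPM. Sesn1 and Sesn2, sestrins that restrain growth signalling, had log2 fold changes of -0.51 and -0.36 and did not pass, although Sesn2 passed as lower in 5 of the alternatives. Sesn1 passed as lower with unmatched comparators (-1.24, edgeR adjusted p = 3.68e-06).

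**Figure D1:**
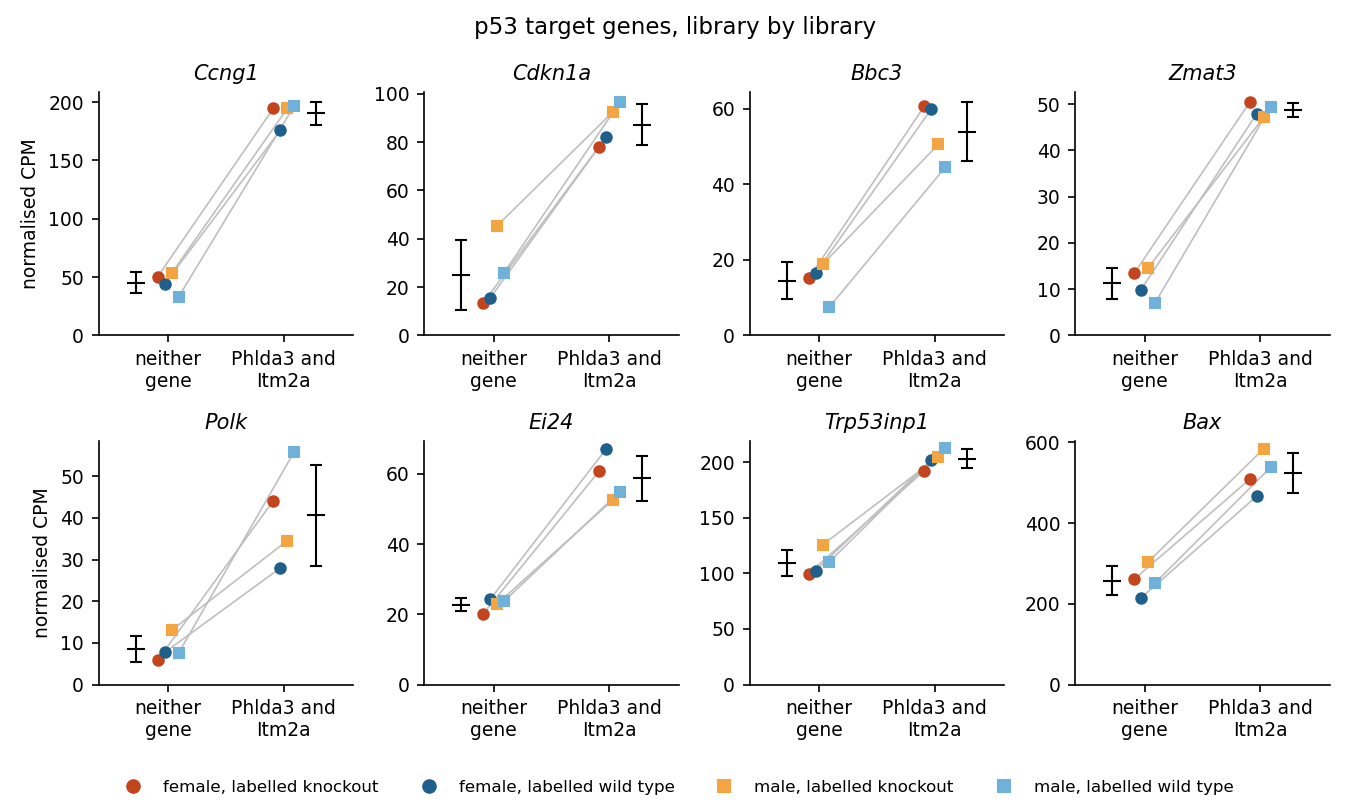
Normalised CPM of 8 p53 target genes in comparators with neither gene and in Phlda3 and Itm2a cells, with 1 point per library, a line joining the groups of a library, and the mean ± SD over 4 libraries beside each group. For each of the 8 genes shown, every library was higher in the Phlda3 and Itm2a cells, and Ccng1 ranged from 176 to 197 CPM against 32.9 to 53.2 CPM.

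Sterol genes were the next group. Idi1 isomerises isopentenyl diphosphate, Cyp51 demethylates lanosterol, and Dctpp1 hydrolyses dCTP and so acts on the nucleotide pool rather than on sterols. Idi1, given as a description because it came with the name, read 114, 99.9, 141 and 165 CPM against 44.4, 54.0, 66.7 and 63.6 CPM in the comparators. Cyp51 read 128, 125, 155 and 183 CPM against 57.8, 62.8, 76.1 and 77.6 CPM, and Dctpp1 192, 179, 202 and 190.3 CPM against 128, 98.0, 130.3 and 128 CPM. The groups did not overlap for any of the 3, all of which came with the name, so this too is a description without a test.

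Without Idi1 and Cyp51, 11 of 20 sterol genes tested rose and none fell, with a median log2 fold change of 0.57. Hmgcs1, which makes HMG-CoA, stood at 50.5, 71.0, 86.6 and 97.9 CPM against 31.0, 19.8, 54.2 and 37.2 CPM, a log2 fold change of 1.06 ± 0.14 (edgeR adjusted p = 1.17e-08). Each library was higher, although the groups overlapped at the female labelled knockout value. Sqle, squalene epoxidase, rose by 1.03, Insig1, which retains the SREBP escort protein, by 0.66 and Srebf2, which encodes SREBP2, by 0.49. With DESeq2, 4 of these 20 genes were called higher and none lower, and the calls of Insig1 and Srebf2 were lost (DESeq2 adjusted p = 0.237 and 0.192).

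**Figure D2:**
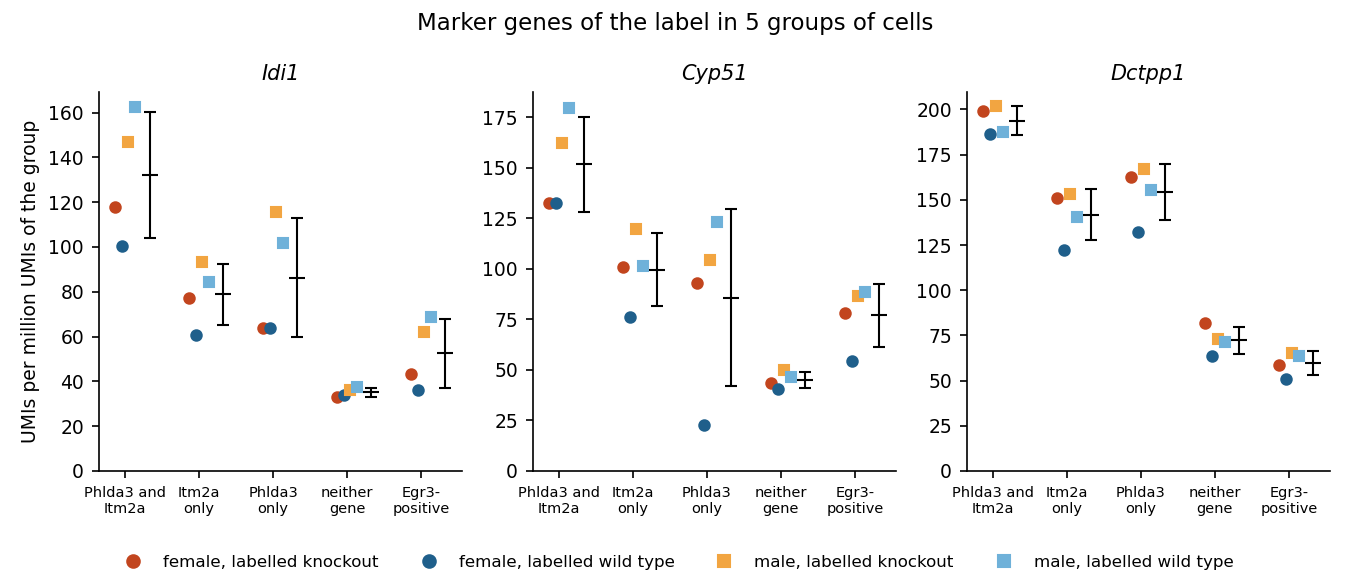
Levels of Idi1, Cyp51 and Dctpp1 in CPM, unscaled, in 5 groups of gated cells that were not matched on depth, with 1 point per library. Idi1 was at 101 to 163 CPM in Phlda3 and Itm2a cells and at 33.1 to 37.5 in cells with neither gene.

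Protein folding genes rose by small factors. Hspa8, the constitutive Hsp70, stood at 2826, 2700, 2745 and 3018 CPM against 1710, 1285, 1490 and 1723 CPM, and its log2 fold change was 0.86 ± 0.04 (edgeR adjusted p = 2.68e-24). Hspe1 and Hspd1, the mitochondrial chaperonin pair, rose by 0.51 and 0.45 and Hsp90aa1 by 0.43. In all, 15 of 23 chaperone genes rose and 1, Hspa9, fell, with a median of 0.33. Of 28 genes of nucleotide synthesis other than Dctpp1, 5 rose, Cad and Gmps among them, and Samhd1, which destroys dNTPs, fell by 1.06. Among 17 glycolysis genes 5 rose and 1 fell.

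Genes of amino acid supply were lower at equal depth. In the list of ATF4 targets and tRNA synthetases, 17 of 20 fell and none rose, with a median of -0.40. Asns, asparagine synthetase, stood at 29.2, 42.0, 15.1 and 24.7 CPM against 62.8, 61.7, 37.5 and 43.7 CPM and fell by 0.94 (edgeR adjusted p = 2.67e-06). Of 12 uptake genes 8 fell, such as Slc3a2 and Slc7a5, the heavy and light chain of a transporter of large neutral amino acids, by 0.60 and 0.56. Myc, which drives growth genes, read 193, 206, 162 and 187 CPM against 277, 320.5, 261 and 312 CPM, a log2 fold change of -0.66 ± 0.07 (edgeR adjusted p = 1.46e-11) with no overlap. The fall of the ATF4 list depended on the matching: against unmatched comparators 7 of 20 genes were higher and 3 lower, with a median of 0.11. Over all 9110 genes tested in that setting, 2511 were higher and 2568 lower, with a median of -0.02.

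Of 26 interferon response genes 19 were tested, of which 18 fell and none rose, with a median log2 fold change of -1.17. Bst2, which encodes tetherin, was the gene that did not pass (-0.01, edgeR adjusted p = 0.964). Without cells carrying markers of other types 16 fell, and the calls of Isg20 and Slfn5 were lost. Isg15, a ubiquitin-like modifier, stood at 12.6, 7.0, 23.8 and 8.40 CPM against 52.8, 72.7, 47.4 and 36.1 CPM and fell by 1.83 (edgeR adjusted p = 1.57e-10). No library of one group reached the other. Ifit1 fell by 2.33 and Gbp2 by 1.32.

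Marks of receptor stimulation were mostly lower, although Egr3, Il2 and Ccl4 were limited on both sides. Of 24 immediate early genes 13 fell, and of 22 activation receptors 16 fell. Egr1, the zinc finger factor induced within minutes of signalling, read 30.0, 17.0, 35.0 and 30.6 CPM against 70.4, 82.6, 103 and 98.6 CPM, a log2 fold change of -1.63. Nr4a1, an orphan receptor that tracks antigen receptor signals, fell by 0.87, Cd69 by 0.69 and Il2ra by 0.54. Against this direction, Cd28 rose by 0.78, Tnfrsf9 (4-1BB) by 0.30, Cd200 by 0.41 and the phosphatases Dusp1 and Dusp5 also rose.

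Genes of the naive state split. Ccr7, the lymph node homing receptor, rose by 0.38, at 556, 656, 497 and 513 CPM against 483, 426, 350.3 and 434 CPM, and Tcf7 (TCF-1) rose by 0.63. Il7r and Txnip fell by 2.60 and 1.17, and Klf2, a factor of quiescent cells, differed by -0.10 (edgeR adjusted p = 0.525). Of 20 naive genes 3 rose and 10 fell. Among survival genes Bcl2 fell by 1.31, at 102, 121, 133 and 74.2 CPM against 292, 257, 327 and 183 CPM, and Mcl1 by 0.24.

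By size among abundant genes, 8 of the 15 largest rises were on the p53 target list used here: Psrc1, Polk, Zmat3, Ccng1, Apaf1, Bbc3, Cdkn1a and Ei24. That list is not a full catalogue of p53 targets. Among the genes not on it were Slc19a2, a thiamine transporter (1.87), Aaas, a nuclear pore protein (1.85), Cd81, a tetraspanin (1.76), Ptp4a3, a phosphatase (1.62), and Glipr1 (1.44). The 10 largest falls began with Plac8, at 3.15, 7.0, 0.973 and 1.48 CPM against 17.6, 120.1, 65.7 and 47.4 CPM, a log2 fold change of -4.49. They went on with Ctla2a, Penk (proenkephalin), Il7r, Ifit1, Rgs1, Prr13, Plscr1, Cnp and Rflnb, between -4.48 and -2.02. With the cells that carried markers of other types removed, Plac8 still differed, by -3.12. Of the genes that share a family with the pair, Phlda1, Itm2b and Itm2c were tested and none passed.

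The second comparison held Itm2a present and removed Phlda3. Itm2a-only cells had at least 2 Itm2a UMIs and no Phlda3 UMI under the same limits (3490 cells). Itm2a itself stood at 663.6, 544.5, 591.8 and 575.4 CPM, unscaled, in Phlda3 and Itm2a cells and at 687, 531, 619 and 544 in Itm2a-only cells, a description of the choice. Fewer genes were called: 204 of 7593 (2.69%) higher and 281 (3.7%) lower. On the same genes DESeq2 called 40 higher and 124 lower. DESeq2 values for single genes, here and elsewhere, are from its fit to all genes with a UMI.

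Targets of p53 accounted for the leading rises. Of 23 tested, 15 rose and none fell, with a median of 0.70. Cdkn1a stood at 79.0, 84.0, 129.7 and 93.9 CPM against 17.8, 19.8, 20.9 and 21.6 CPM, with no overlap and a log2 fold change of 2.31 ± 0.13 (edgeR adjusted p = 2.13e-20). Psrc1, Ccng1, Polk, Bbc3, Zmat3, Ercc5 and the thiamine transporter Slc19a2 completed the 8 largest rises, from 1.41 to 2.12. Bax rose by 0.75.

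Of the sterol genes, Idi1 read 114, 98.3, 144 and 165 CPM against 85.1, 66.0, 107 and 107 CPM in Itm2a-only cells, and Cyp51 129, 135, 159 and 182 CPM against 122, 100, 123 and 127 CPM. Of the 19 other sterol genes tested, Hmgcs1 (0.38) and Sqle (0.47) rose. Both calls were lost with DESeq2 and without the female or the male labelled wild type library, and that of Hmgcs1 also without the male labelled knockout library. Of 20 ATF4 genes 16 fell and of 12 uptake genes 8 fell, while 3 of 18 interferon genes fell. Isg15 did not pass (-0.44, edgeR adjusted p = 0.394), but without the male labelled knockout library it was called at -1.06 (edgeR adjusted p = 0.0434). The 8 largest falls were Nrn1, Egr2, Nr4a2, Egr1, H2-M3, Slc7a11, Slamf6 and Cebpb, from -1.97 to -0.84. Without the male labelled wild type library Slamf6 was at -0.56 and was not called (edgeR adjusted p = 0.218).

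The third comparison held Phlda3 present and removed Itm2a. Phlda3-only cells were scarce, 269 in all and 22 in the female labelled wild type library, and 242 pairs were matched. Of 5434 genes tested 24 (0.442%) were higher and 92 (1.69%) lower. Of 20 p53 targets 1 rose, Trp53inp1 (0.64), and 1 fell, with a median of -0.01. The Trp53inp1 call was lost with DESeq2 (adjusted p = 0.0802) and without the male labelled wild type library (edgeR adjusted p = 0.0506). The gene that fell was Cdkn1a, at 99.0, 101, 84.5 and 81.5 CPM against 75.9, 167, 253 and 334 CPM, a log2 fold change of -1.14 ± 0.24 (edgeR adjusted p = 0.0117). The female labelled knockout library went the other way, and the call was lost with DESeq2 (adjusted p = 0.0802) and without either male library (edgeR adjusted p = 0.065 and 0.316). Ccng1 read 208, 269, 224 and 198 CPM against 164, 127, 168 and 202 CPM, higher in 3 of 4 libraries, but the difference of 0.37 ± 0.14 did not pass after adjustment (edgeR adjusted p = 0.283).

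Interferon genes were again lower with Itm2a: 7 of 13 fell, with a median of -0.77, and Isg15 fell by 1.76, at 8.12, 4.81, 27.6 and 5.82 CPM against 54.0, 50.7, 46.5 and 29.4 CPM. The call of Isg15 was lost without the female labelled knockout or the male labelled wild type library (edgeR adjusted p = 0.159 and 0.0738). Cd3e, Cd3g, Trbc2 and Cd28 rose by 0.57, 0.65, 0.48 and 0.86, so these transcripts were scarcer per UMI in the Phlda3-only cells. Markers of other cells moved with them in several libraries, and their part in the result was not tested. NK markers summed to 20.3, 9.13, 5.71 and 63.4 CPM in Phlda3-only cells, against 0, 14.9, 3.64 and 0 CPM in Phlda3 and Itm2a cells. Innate-like markers summed to 26.1, 0, 11.4 and 59.6 CPM against 0, 3.98, 1.82 and 3.31 CPM. Both sums were therefore higher in Phlda3-only cells in 3 of 4 libraries, as were regulatory T cell markers, at 119, 36.5, 72.8 and 61.5 CPM against 59.3, 68.7, 51.0 and 40.2 CPM. Top2a and Mki67, of cycling cells, stood at 82.7 and 39.2 CPM in Phlda3-only cells of the female labelled knockout library, against 2.44 and 0 CPM. Myb, a progenitor transcription factor, rose by 1.27, at 162, 159, 132 and 214 CPM against 96.1, 55.8, 40.1 and 79.8 CPM. Serpinb6b, Rora, Serpinb9, Lta, Plscr1, Cxcl10 and Zeb2 fell by 1.80 to 2.43. The calls of Rora and Plscr1 were lost without the female labelled knockout library (edgeR adjusted p = 0.226 and 0.0612), that of Lta without the male labelled knockout library (-1.09, edgeR adjusted p = 0.151) and that of Zeb2 without the male labelled wild type library (edgeR adjusted p = 0.0835). Of 14 sterol genes other than Idi1 and Cyp51, 1 rose and none fell, and Idi1 read 112, 125, 151 and 124 CPM against 65.8, 71.0, 128 and 111 CPM. The number of genes called depended on the libraries used: it was 116 with all 4, and 45, 151, 77 and 52 when each was left out in turn.

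**Figure D3:**
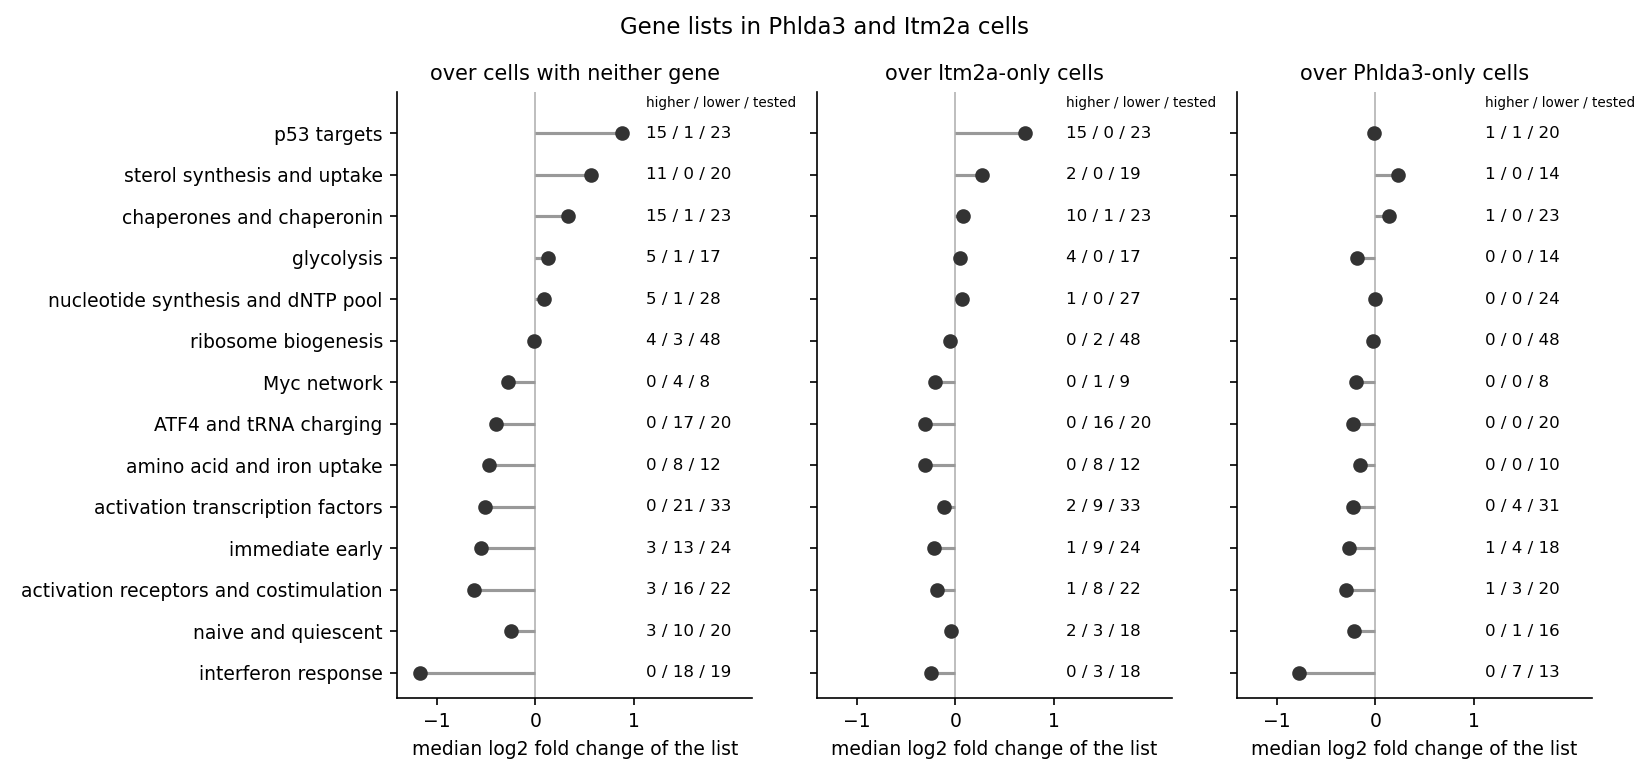
Median log2 fold change of 14 gene lists in Phlda3 and Itm2a cells over 3 groups of depth-matched cells, with the number of list genes called higher, called lower and tested beside each point and with Phlda3, Idi1, Cyp51 and Dctpp1 left out. The p53 list lies at 0.88 and 0.70 over the groups without Phlda3 and at -0.01 over Phlda3-only cells, and the interferon list at -1.17, -0.25 and -0.77.

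The 3 comparisons share the same Phlda3 and Itm2a cells, so they are given side by side and not as independent results. Ccng1 differed by 2.10, 1.53 and 0.37 over cells with neither gene, Itm2a-only cells and Phlda3-only cells. Isg15 differed by -1.83, -0.44 (-1.06 without the male labelled knockout library) and -1.76 in the same order. The difference between these differences was not tested.

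Cells with at least 2 Egr3 UMIs (1649 cells) formed a further group, and how recently they had responded was not tested. Egr3 was part of the rule and other genes of the rule differed too, so this contrast describes the choice in part. Before matching and unscaled, Il2 stood at 308, 381, 217 and 161 CPM in Egr3-positive cells. Il2, Ccl4 and Il12rb2 were higher there than in Phlda3 and Itm2a cells in each library, and Phlda3 and Itm2a were lower. Of 7418 genes 1304 (17.6%) were higher and 1446 (19.5%) lower. Egr1 stood at 33.1, 18.9, 39.1 and 31.7 CPM against 1044, 1007, 736 and 676 CPM, and Myc and Cd69 fell by 1.72 and 1.67. Of 25 other immediate early genes 20 fell, between groups chosen by Egr3, a gene of the same list. How much of this fall follows from that choice was not tested. Ccr7 rose by 2.25, at 576, 671, 503 and 504 CPM against 143, 69.1, 112 and 124 CPM. Of 23 p53 targets 16 rose and 2 fell, and of 27 nucleotide genes without Dctpp1 13 rose and 2 fell.

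Single cells were compared after thinning each to 4000 UMIs, which leaves out shallower cells. Phlda3 and Itm2a cells then held a mean of 7.56, 6.78, 7.53 and 7.08 UMIs of the p53 list in the 4 libraries. Cells with neither gene held 3.91, 3.94, 4.14 and 3.84, Itm2a-only cells 4.44, 4.27, 4.41 and 3.84, and Phlda3-only cells 6.72, 8.05, 7.88 and 8.41. By this sum Egr3-positive cells lay between, at 5.16, 5.74, 5.10 and 5.38, although single genes of the list differed. The list was present in cells without the pair too: 33.9% to 36.5% of cells with neither gene had 5 or more UMIs of it, against 70.9% to 79.1% of Phlda3 and Itm2a cells. A Ccng1 UMI was found in 51.9%, 49.4%, 54.8% and 46.2% of Phlda3 and Itm2a cells and in 16.5% to 18.0% of cells with neither gene. Egr3-positive cells lay below both for Ccng1, at 12.1%, 11.2%, 10.1% and 7.41%. A Cdkn1a UMI was found in 7.86%, 10.1%, 11.7% and 17.5% of Egr3-positive cells, above the 6.33%, 4.54%, 5.59% and 5.31% of cells with neither gene.

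In the same thinned cells, Phlda3 and Itm2a cells held on average 3.91, 3.56, 4.64 and 4.50 UMIs of the sterol list, Itm2a-only cells 3.07, 2.66, 3.61 and 3.13, Phlda3-only cells 2.77, 1.91, 3.04 and 3.22, and cells with neither gene 2.27, 1.95, 2.27 and 2.07. Itm2a-only cells lay above Phlda3-only cells in 3 of 4 libraries. Both lists, as summed CPM, were higher with more UMIs of either gene of the rule. Among Phlda3 and Itm2a cells, those with 2 or more Phlda3 UMIs had 1994, 1882, 2108 and 2113 CPM of p53 targets, and those with 1 UMI had 1744, 1574, 1775 and 1466. The corresponding sterol sums were 1113, 1302, 1276 and 1329 against 873, 733, 1128 and 1082. Cells with 4 or more Itm2a UMIs had sterol sums of 1030, 1023, 1235 and 1296 CPM, and those with 2 or 3 had 816, 802, 1087 and 891. Their p53 target sums were 1886, 1734, 1921 and 1801 CPM against 1721, 1607, 1911 and 1687. Cells with more UMIs of either gene were also deeper in each library, with medians of 7560, 12440, 9499 and 12891 UMIs against 6940, 10896, 9096 and 12414 for Phlda3, and the part of depth in these sums was not tested.

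Cells just inside the threshold, with 1 Phlda3 and 2 Itm2a UMIs, had 1590, 1440, 1706 and 1165 CPM of p53 targets, from 10 to 25 cells a library. Cells just outside by Itm2a, with 1 UMI of each gene, had 1448, 1266, 1495 and 1662. Cells just outside by Phlda3, with none of it and 2 Itm2a UMIs, had 1060, 907, 1044 and 959, below the cells just inside in every library. These values describe the rule and were not tested.

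At equal depth, Phlda3 was found more often in cells with more Itm2a. With cells thinned to 4000 UMIs, a Phlda3 UMI was found in 4.88%, 2.98%, 3.03% and 2.39% of cells without Itm2a, in 6.64%, 6.25%, 7.0% and 4.66% of cells with 1 Itm2a UMI, and in 8.85%, 10.0%, 8.87% and 7.44% of cells with 2 or more. The order was the same in each of the 4 libraries, and since both genes belong to the rule it is a description without a test. Free RNA in the droplets bears on such shares. In droplets under 200 UMIs Phlda3 was read at 14.3 CPM against 15.5 CPM in gated cells, and Itm2a at 146 against 250 CPM. Too few cells of other types were found for a background share, with Phlda3 in 0, Itm2a in 1, Idi1 in 3 and Cyp51 in 2 of 9 B-like cells.

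**Figure D4:**
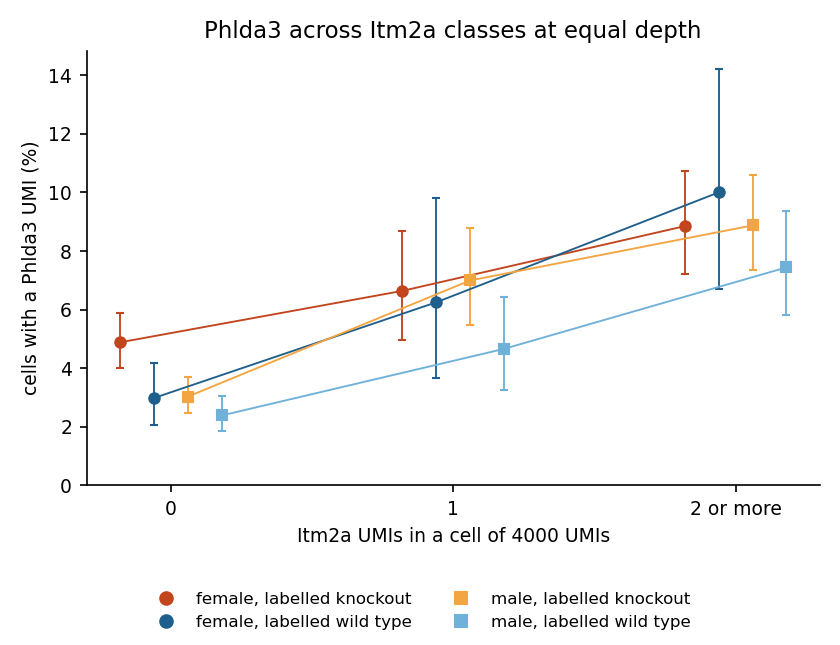
Percentage of gated cells with a Phlda3 UMI after thinning to 4000 UMIs, by the cell's Itm2a count, with 1 line per library and exact 95% binomial intervals that cover counting error only. The share runs from 2.39% to 4.88% in cells without Itm2a and from 7.44% to 10.0% in cells with 2 or more UMIs.

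The share of the gate that met the rule was compared between genotype labels. As counted it was 2.95%, 4.99%, 3.55% and 3.58%. Thinned to 4000 UMIs it was 2.09% (82 of 3919 cells), 1.49% (24 of 1615), 1.89% (102 of 5391) and 1.39% (60 of 4319). Under the knockout label the thinned share was 1.99% ± 0.14 (SD, n = 2), and under the wild type label 1.44% ± 0.07 (SD, n = 2). At this depth the labels did not overlap, and the two-sided exact permutation p of 0.33 is the smallest that 2 against 2 libraries can give. Thinning left out 1703, 87, 813 and 122 shallower cells. At 8000 UMIs the shares were 6.62%, 5.74%, 5.35% and 3.1%, so the 2 libraries of each label overlapped (exact permutation p = 0.67). Within each sex the share was higher under the knockout label at 2000, 4000 and 8000 UMIs, and 2 pairs are too few for a test that could pass 0.05. Unthinned shares had the opposite order, with a difference of -1.04 percentage points, and the depth of the libraries differed in the same direction as these unthinned shares.

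**Figure D5:**
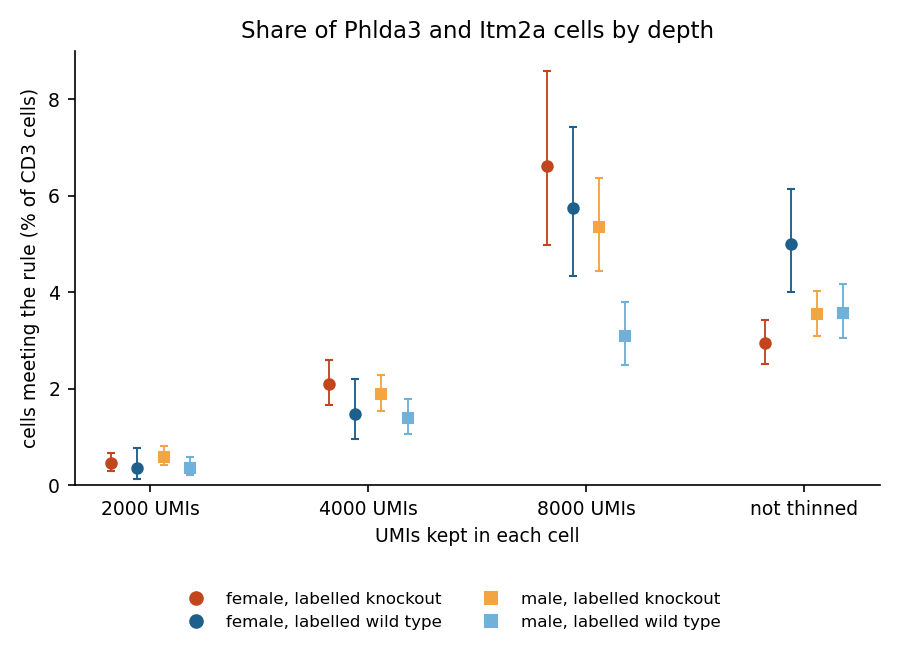
Percentage of gated cells meeting the rule in each library, at 3 thinned depths and without thinning, with exact 95% binomial intervals that cover counting error only. At 4000 UMIs the shares are 2.09% and 1.89% under the knockout label and 1.49% and 1.39% under the wild type label, and the order differs without thinning.

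Within the Phlda3 and Itm2a cells, few genes differed between libraries labelled knockout and wild type. With sex as a covariate, 9 of 7720 genes (0.117%) were called, 418 had an unadjusted edgeR p under 0.05, and DESeq2 called none, with 21 at an unadjusted p under 0.05. Sp110, a nuclear body protein, was read at 0, 93.9, 0 and 74.6 CPM. It had 0 UMIs under the knockout label and 246 under the wild type label, at least 90.1-fold lower against a floor of 3 counts over the group. Its paralogue Sp140 had 0 and 32 UMIs, at least 11.7-fold lower. Because the genes are related in sequence, reads could be shared between them. Neither Sp110 nor Sp140 was among the calls of the interaction test below, so their difference was not shown to be particular to these cells.

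The other calls were smaller or rested on few cells. Trat1, an adaptor of the T cell receptor, stood at 144, 88.9, 185 and 91.8 CPM, higher under the knockout label by 0.88. Ifi47, an interferon-inducible GTPase, was at 178, 107, 172 and 97.7 CPM, higher by 0.78, and Ly6a, which encodes Sca-1, at 358, 301, 431 and 199 CPM, higher by 0.71. Arf5 was lower by 0.75, at 122, 198, 108 and 187 CPM. Smo, with 0, 10, 1 and 21 UMIs, and Gm45184 were also called lower from few molecules. Ighm was called higher, and the 1 cell named above held nearly all of its UMIs. The call of Ly6a was lost without the sex term (edgeR adjusted p = 0.17) and with the highest doublet scores removed (edgeR adjusted p = 0.0755). Without the sex term and the male labelled knockout library Ly6a was at 0.54 (edgeR adjusted p = 0.245), and without the sex term and the male labelled wild type library at 0.40 (edgeR adjusted p = 0.399). In fits without the sex term and without the male labelled knockout library, the calls of Trat1, Arf5, Smo and Sp140 were lost, with edgeR adjusted p from 0.0613 to 0.103. Without cells that carried markers of other types 5 calls were left, Sp110, Arf5, Gm45184, Ifi47 and Trat1, all among the 9.

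No p53 target and no sterol gene was called between the genotype labels, with list medians of 0.06 and -0.01 over the 24 and 21 genes tested other than Phlda3, Idi1 and Cyp51. Of 16 interferon genes Ifi47 alone passed, and the median was 0.67. Irf5 itself had 11, 1, 17 and 2 UMIs in these cells and did not pass (edgeR adjusted p = 0.246), but with no expression filter it was called higher under the knockout label, at 2.94 (edgeR adjusted p = 0.0398). In simulated counts of these samples the test recovered 13.5% of genes changed by 0.5 on the log2 scale and 65.5% of those changed by 1, so a small difference could be missed at this depth.

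Whether the genotype difference in Phlda3 and Itm2a cells departs from that in matched cells with neither gene was tested as an interaction. It called 9 of 8088 genes (0.111%), with 497 at an unadjusted edgeR p under 0.05, and DESeq2 called none, with 71 at an unadjusted p under 0.05. Cd226, an adhesion receptor that costimulates T cells, stood at 13.4, 27.9, 8.24 and 25.2 CPM in Phlda3 and Itm2a cells and at 40.9, 19.8, 29.1 and 16.1 CPM in the comparators. It was lower under the knockout label in the first and higher in the second, in each sex. No p53 target and no sterol gene was among the calls.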

How the data were processed

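Single-cell RNA was measured in 4 droplet libraries. The authors deposited raw UMI counts per gene and barcode, not normalized, for every barcode, per the file headers, which name Cell Ranger 4. The submitters' processing notes name Cell Ranger 6.0.2 and mm10. Deposited totals were 38334976, 28841161, 53494911 and 55850754 UMIs for 32285 genes, in the order of the text. Whether counting used strand is not given in the sources used here.

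The members, lists and comparisons were chosen with earlier results of these data known. Cells were gated by the rule in the text, matched on UMIs without replacement in a fixed random order, and summed per library and group. The sums were tested with edgeR 4.0.16 (R 4.3.3, TMM, filterByExpr, quasi-likelihood, library as a block; genotype fits had sex as a covariate). DESeq2 1.42.0 was an alternative, on all genes with a UMI (its own filter decides which are adjusted) and, added after seeing the data, on the genes edgeR tested. Exact tests used scipy 1.17.1 in Python 3.11.15. Fold changes are log2, and SE is the fold change divided by the root of its F statistic. The script was tested on simulated data: in the comparison with neither gene 46.5% of genes changed by 0.5 and 85.5% of those changed by 1 were recovered.

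Besides the rule's genes and label markers, the text names list genes, and the 15 largest rises and 10 largest falls (8 in other comparisons) among called genes with 1 direction in every library and at least 20 CPM in a group, leaving out mitochondrial, ribosomal protein, variable receptor, Gm and Rik genes. Some genes that this rule names are not reported here. Genes named outside that rule because they were called between genotypes, such as Ighm, Smo and Sp140, were chosen after their values were seen. Doublets were not removed, and scrublet in scanpy 1.11.5 marked 0.0356% to 2.22% of a library. Because that was under 0.5% in 3 libraries, an alternative removed the highest scores at 0.8% per 1000 cells. Cells were called as carrying another type by at least 2 UMIs of B markers or 20 of Ighm, 3 of NK, 2 of innate-like, 3 of myeloid, 2 of CD8 or 20 of erythroid markers or 10 of Car1 and Car2. Their removal was an alternative chosen after seeing the data. Intervals and floors cover counting error only.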

Additional observations from a re-analysis of the deposited data

Results flagged for a closer look

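In 9 genes the genotype difference in Phlda3 and Itm2a cells departed from that in matched cells with neither gene, by the interaction term of the edgeR fit. Values are differences of log2 fold changes (knockout over wild type label, Phlda3 and Itm2a cells minus comparators). Cd226 was at -2.29 (edgeR adjusted p = 0.00119), Cxcl10 at 1.86 (0.00958) and Ly6a at 0.60 (0.00204), and these 3 calls were also made after cells with markers of other types were removed, at -2.18, 1.81 and 0.50. Without the male labelled knockout library Cxcl10 was at 0.61 and Ly6a at 0.44, and neither was called (edgeR adjusted p = 1 and 0.62). Ly6a stood at 341, 290, 424 and 181 CPM in Phlda3 and Itm2a cells and at 677, 711, 685 and 520 CPM in the comparators.

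Cxcl10 rested on few cells: in the male labelled wild type library 1 of the Phlda3 and Itm2a cells held 33 of 47 UMIs and 1 comparator held 82 of 196. In the female labelled knockout library 3 of the Phlda3 and Itm2a cells held 9 of 11 UMIs.

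For Hist1h1b, Hist1h2ap and Car2, single cells of the comparators held most UMIs of a library. Hist1h1b was at 7.90 (edgeR adjusted p = 0.00158), with 231 of 231 and 116 of 116 UMIs of the female and male labelled wild type comparators in 1 cell each. Hist1h2ap was at 5.28 (edgeR adjusted p = 3.31e-05), with 126 of 130 and 166 of 179 UMIs in 1 cell each of the same libraries. Car2 was at 3.54 (edgeR adjusted p = 0.0371), with 184 of 193 UMIs of the female labelled wild type comparators in 1 cell. Cxcr6 was at -3.22 (edgeR adjusted p = 0.0221), Atpif1 at 1.42 (edgeR adjusted p = 0.0409) and Hmgb2 at 0.72 (edgeR adjusted p = 0.0488). After cells with markers of other types were removed, Cxcr6 was at -0.05, Atpif1 at 0.31 and Hmgb2 at 0.17, and none was called.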

How the results depend on the processing

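The number of genes called over cells with neither gene was 1424. It was 513 with DESeq2 on all genes with a UMI, 601 with DESeq2 on the genes edgeR tested, 5079 with comparators not matched on UMIs and 836 when both groups were limited to cells without Klf2 UMIs, and 999 to 1384 without 1 library. DESeq2 called 159, 30, 1344, 0 and 0 genes (164, 20, 1452, 0 and 0 on the genes edgeR tested) over Itm2a-only, Phlda3-only and Egr3-positive cells, between genotype labels and in the interaction, against 485, 116, 2750, 9 and 9 with edgeR. Leaving out 1 library gave 246 to 402 (fewest without the male labelled wild type library), 45 to 151 (fewest without the female labelled knockout library, 77 and 52 without the male libraries labelled knockout and wild type), 2047 to 2631, 21, 26, 46 and 79 (without male and female labelled knockout, male and female labelled wild type) and 5 to 70 (70 without the male labelled wild type library). With 1 library left out, an arm of a genotype fit held a single library, assumed to vary like the others, and the sex term was dropped between labels. No expression filter gave 184 genes over Phlda3-only cells, 40 between labels and 19 in the interaction. With cells carrying markers of other types removed, 5 genes were called in each genotype fit, 5 and 3 of them among the 9. The difference in share, 0.555 percentage points, was 0.173 at 2000 UMIs, 1.56 at 8000, -1.04 unthinned and 0.454 to 0.655 without 1 library. Ggps1 turned to -0.29 with unmatched comparators and Car2 to -0.27 in the interaction without the female labelled wild type library (-0.27 to 5.57 without 1 library). The cause of these changes was not tested. Over all settings but the unmatched one, 13 to 16 p53 targets were called higher. The labels give no replicate numbers. Sex joins the libraries of both labels in pairs and was a covariate between labels, where 7 genes were called without it. Depth limits Phlda3, read at 1 UMI in most cells.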
